A study of Mus musculus with 9 samples.

Results

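The genes described here belong to Toll-like receptor signalling and are listed by symbol as Tlr7, Tlr9, Tlr3, Tlr4, Tlr11, Unc93b1, Myd88, Irak4, Irf5 and Slc15a4. Their symbols were matched to Ensembl identifiers in the spleen count table, which found 10 of 10, out of 21965 gene identifiers counted in all. They were followed in 9 RNA-seq libraries in 3 groups of 3, all from mice aged 16 weeks. The groups are female BWF1 mice (the F1 cross of NZB and NZW, named as lupus-prone in the series title), male BWF1 mice (named there as not lupus-prone) and female BALB/c mice, an unrelated inbred strain also named as not lupus-prone. The labels give no transgene, deletion or treatment for any group. The comparisons are female BWF1 mice with male BWF1 mice, female BWF1 mice with BALB/c mice, and male BWF1 mice with BALB/c mice. In the last of these both sex and strain differ, and the effects of sex and strain cannot be told apart. Nothing in the labels says whether the numbered samples of a group are animals kept or processed separately, so p-values measure the spread between these libraries.

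Toll-like receptors recognise molecules from microbes and, in some settings, from the body's own cells. Tlr7 recognises single-stranded RNA, Tlr9 recognises DNA with unmethylated CpG motifs and Tlr3 recognises double-stranded RNA, all in endosomes. They reach the endosome with the chaperone Unc93b1, and Tlr7 and Tlr9 then signal through the adaptor Myd88, the kinase Irak4 and transcription factors such as Irf5, with the lysosomal transporter Slc15a4 needed for the response. Tlr4 and Tlr11 sense other ligands than nucleic acids. Tlr4 recognises bacterial lipopolysaccharide at the cell surface, and Tlr11, which in the mouse also depends on Unc93b1, recognises the protein profilin of Toxoplasma. Tlr7 and Tlr9 are best known in lupus for the response of B cells and plasmacytoid dendritic cells to self RNA and DNA.

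Of these genes, Tlr11 was the one called between groups. It stood at 0 to 2.21 CPM (a count rate that puts libraries on a common total) in female BWF1 mice and 0 to 3.33 CPM in male BWF1 mice, against 11.2 to 15.9 CPM in BALB/c mice. It passed the filter on low counts only through the BALB/c libraries, so a high level there was a condition of its being tested. Its call in female BWF1 mice was lost with DESeq2. The other 8 genes tested, among them Tlr7, Tlr9 and their chaperone Unc93b1, were called in none of the 3 comparisons. Of all tested genes, 2.19% were called for female BWF1 mice over male BWF1 mice. Over BALB/c mice 3.82% were called for female BWF1 mice and 3.52% for male BWF1 mice. With so few genes, these counts are near what that background gives. Myd88 was lower in every BWF1 female library than in any BWF1 male library, by a difference that did not pass the test after adjustment. The nearest libraries stood at 20.5 and 20.8 CPM, and 18.7% of all tested genes did not overlap between these groups. Tlr3 was too low to be tested, and its few counts were lowest in female BWF1 mice.

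Promoter sequences are shown for Tlr11, Tlr3 and Myd88, since these are the genes whose libraries did not overlap between at least 1 pair of groups. Each runs 5′ to 3′ over 300 bases, from 250 before to 50 after the start site, and comes from RefSeq on GRCm38.p6. Tlr11 lies at chr14:50357664-50357963 on the plus strand, Tlr3 at chr8:45410331-45410630 on the minus strand and Myd88 at chr9:119339969-119340268 on the minus strand. Capitals mark letters that match GAAANNGAAA (interferon-stimulated response element), GGGANNNNCC (NF-kB) or GAGGAAGT (PU.1) on either strand, and no 2 matches overlap.
Tlr11: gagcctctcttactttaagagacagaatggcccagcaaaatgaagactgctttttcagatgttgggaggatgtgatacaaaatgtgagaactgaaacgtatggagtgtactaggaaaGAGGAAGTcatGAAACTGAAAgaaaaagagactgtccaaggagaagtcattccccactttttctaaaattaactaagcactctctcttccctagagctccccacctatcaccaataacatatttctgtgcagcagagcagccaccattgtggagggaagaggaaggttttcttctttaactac
Tlr3: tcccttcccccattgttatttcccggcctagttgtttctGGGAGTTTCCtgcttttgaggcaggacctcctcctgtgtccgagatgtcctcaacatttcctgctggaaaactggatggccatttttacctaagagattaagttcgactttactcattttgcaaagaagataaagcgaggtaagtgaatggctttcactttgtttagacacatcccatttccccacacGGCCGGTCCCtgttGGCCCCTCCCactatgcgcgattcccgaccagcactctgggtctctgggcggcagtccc
Myd88: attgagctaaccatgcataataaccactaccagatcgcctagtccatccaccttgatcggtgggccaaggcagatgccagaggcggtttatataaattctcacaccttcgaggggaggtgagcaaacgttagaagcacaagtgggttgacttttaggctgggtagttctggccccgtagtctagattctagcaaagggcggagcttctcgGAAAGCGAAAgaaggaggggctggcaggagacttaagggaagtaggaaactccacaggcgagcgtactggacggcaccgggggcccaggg
The Tlr11 window held the PU.1 letters at bases 118 to 125 and the interferon-stimulated response element letters at bases 129 to 138, counted from the 5′ end. In the Tlr3 window there were 3 NF-kB matches, at bases 40 to 49 on the printed strand and at bases 228 to 237 and 242 to 251 on the other. Myd88 had 1 match, to GAAANNGAAA, at bases 211 to 220. Across 32851 RefSeq promoters of the same length, GAAANNGAAA was found in 3.44%, GGGANNNNCC in 20.7% and GAGGAAGT in 3.2%. Of the genes described here, 7 of 10 had an entry in that promoter set (Tlr7, Tlr4 and Unc93b1 did not), and 2, 1 and 2 of these 7 held a match to GAAANNGAAA, GGGANNNNCC and GAGGAAGT. The other gene with the PU.1 letters was Tlr9. A match is a run of letters and no evidence of binding. For Tlr3 and Myd88 the RefSeq start lies inside the span of the gene in GENCODE M21.

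Depth was low and uneven. Gene counts per library ran from 458608 to 4305003, and a single gene, Lars2, took 42.3% to 76.6% of them. The 10 genes together had 264 to 2878 counts per library. CPM values were also scaled by TMM, a method that aligns the bulk of genes between libraries, and on this scale 3 counts in 1 library correspond to 0.625 to 6.62 CPM. Without TMM scaling the median log2 fold change of all genes moved to 0.16 for female BWF1 mice over male BWF1 mice, to −0.29 for female BWF1 mice over BALB/c mice and to −0.45 for male BWF1 mice over BALB/c mice. Fold changes below are therefore relative to the bulk of genes. BWF1 male 3 held the most counts and BWF1 male 1 had the lowest TMM factor, 0.530. Fold changes of several genes are therefore also given without 1 of these libraries. Marker calls and pooled count ratios are given with both only. File names carry 1 of 2 tags, ORIG in BWF1 female 2, BWF1 male 2 and all BALB/c libraries and RL in the rest, with a meaning that is not given in the sources used here.

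The labels conflict on the material. The series title and design text name splenocytes, and the samples are labelled as macrophages gated on CD11b and F4/80. Summed over 9 of 9 B cell markers, levels were 2164 to 2407 CPM in female BWF1 mice, 2297 to 2890 CPM in male BWF1 mice and 3203 to 3247 CPM in BALB/c mice. The 8 of 8 macrophage gate markers summed to 190 to 216 CPM in female BWF1 mice, 365 to 579 CPM in male BWF1 mice and 297 to 371 CPM in BALB/c mice. Itgam, which encodes CD11b, averaged 0.538 CPM in female BWF1 mice (1 count in all), 4.87 CPM in male BWF1 mice (37 counts, 32 of them in BWF1 male 3) and 5.52 CPM in BALB/c mice (22 counts), and was too low to be tested. Adgre1, which encodes F4/80, averaged 14.8 CPM in female BWF1 mice, 15.3 CPM in male BWF1 mice and 7.27 CPM in BALB/c mice. It was tested and not called by edgeR or DESeq2, and limma-voom called it higher in male BWF1 mice than in BALB/c mice. The B cell total was thus the larger in every library, which goes against a macrophage label. Markers of plasmacytoid dendritic cells, which carry Tlr7 and Tlr9 at high levels, summed over 7 of 7 to 226 to 307 CPM in female BWF1 mice, 300 to 368 CPM in male BWF1 mice and 191 to 206 CPM in BALB/c mice. Of 5 tested, edgeR called 1, Ly6d, higher in both BWF1 groups than in BALB/c mice, beside 1.79% and 1.67% of all tested genes. In female BWF1, male BWF1 and BALB/c mice, Siglech averaged 13.1, 18.6 and 18.7 CPM and Ccr9 12.4, 16.1 and 13.0 CPM. Mean Bst2 and Tcf4 were higher in both BWF1 groups than in BALB/c mice. No marker of any list was at 0 in a whole group. In bulk samples, fewer cells of a type and less RNA per cell cannot be told apart.

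Levels per kilobase of exon ordered the genes over all 9 libraries as Unc93b1, Irf5, Tlr9, Slc15a4, Myd88, Irak4, Tlr7, Tlr4, Tlr11 and Tlr3. Unc93b1 averaged 74.6 CPM per kb over the 9 libraries and ranged from 66.4 to 86.3. Irf5 averaged 33.2 CPM per kb and Tlr9 28.1 CPM per kb, with Irf5 the higher in 8 of 9 libraries. Ranges did not overlap between Unc93b1 and Irf5 or between Tlr9 and Slc15a4, and overlapped between all other neighbours in the order. Tlr7, the RNA sensor, averaged 4.21 CPM per kb, and its neighbour Irak4, at 4.44 CPM per kb, was above it in 5 of 9 libraries. The first 5 places were the same in all 3 groups. Tlr11 took place 9 in female BWF1 mice, with 0.389 CPM per kb, place 10 in male BWF1 mice, with 0.444 CPM per kb, and place 7 in BALB/c mice, with 4.07 CPM per kb.

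**Figure D1:**
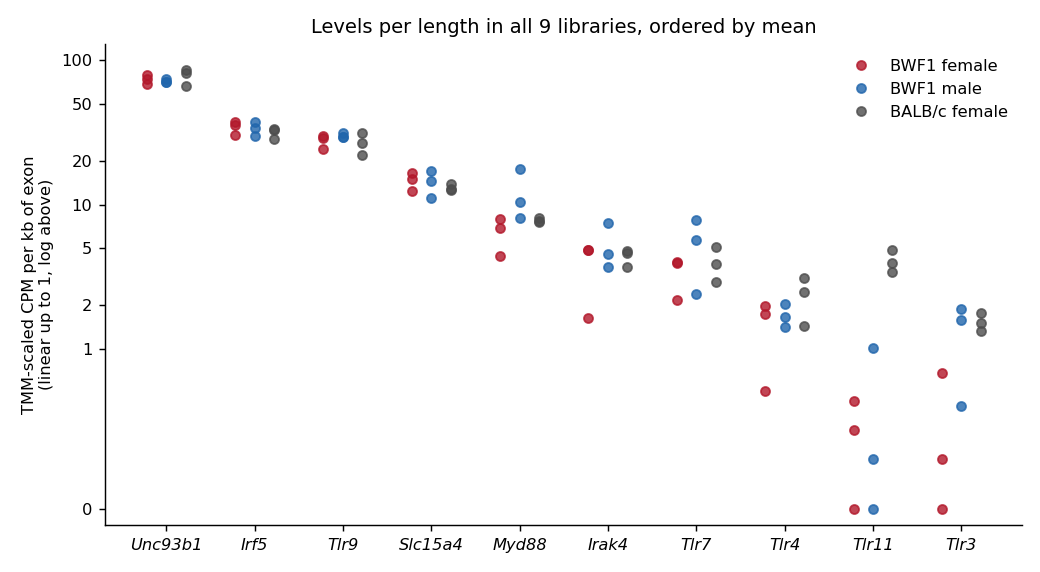
Level of each gene in TMM-scaled CPM per kilobase of exon (vertical axis, linear up to 1 and logarithmic above), with the genes in order of their mean over 9 libraries and 1 point per library, coloured by group. Unc93b1 lies between 66.4 and 86.3 in all libraries, and the Tlr11 points of BALB/c mice stand above those of female BWF1 mice and male BWF1 mice.

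Tlr11 (ENSMUSG00000051969) lies at chr14:50357914-50363663 on the plus strand of mm10. Its counts were 1, 1 and 0 in female BWF1 mice and 18, 17 and 16 in BALB/c mice, which corresponds to 2.21, 1.61 and 0 CPM in female BWF1 mice and 12.9, 11.2 and 15.9 CPM in BALB/c mice. Male BWF1 mice had 0, 1 and 16 counts, or 0, 1.03 and 3.33 CPM, with nearly all of the male counts in the deepest library, BWF1 male 3. Every BWF1 library of either sex lay below every BALB/c library. Means were 1.27 ± 1.14 CPM in female BWF1 mice, 1.45 ± 1.71 CPM in male BWF1 mice and 13.3 ± 2.37 CPM in BALB/c mice (SD, n = 3 each).

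The log2 fold change of Tlr11 was −3.27 ± 0.77 (SE) for female BWF1 mice over BALB/c mice, with a 95% interval from −4.85 to −1.69 and an edgeR adjusted p of 0.0111. Male BWF1 mice had a log2 fold change over BALB/c mice of −2.45 ± 0.53 (SE), with a 95% interval from −3.53 to −1.36 and an edgeR adjusted p of 0.00536. Both comparisons use the same BALB/c libraries. From pooled counts, the BWF1 female level was 0.0986 of the BALB/c level (exact 95% interval 0.0116 to 0.375, for 2 against 51 counts) and the BWF1 male level was 0.208 of it (0.113 to 0.366, for 17 against 51 counts), and these intervals cover counting error only. Female BWF1 mice and male BWF1 mice were not told apart at this depth, with 2 counts in female BWF1 mice and 17 counts in male BWF1 mice and a ratio of 0.474 (0.0531 to 2.00). With its low BWF1 levels, Tlr11 passed the filter on low counts only through its BALB/c libraries. A high level there was thus a condition of its being tested, and the p-values above carry that condition.

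The Tlr11 call for female BWF1 mice over BALB/c mice was lost without BWF1 female 2 (edgeR adjusted p = 0.0545), without BALB/c female 3 (adjusted p = 0.0505) and with DESeq2 (adjusted p = 0.125), within a range of 0.000632 to 0.125 over all alternatives. In male BWF1 mice the call over BALB/c mice held without each library in turn, and the log2 fold change moved to −4.04 (adjusted p = 0.00761) without BWF1 male 3. It was lost, at a log2 fold change of −3.04, when the file tag was a term in the model (adjusted p = 0.1, the highest over all alternatives, against a lowest of 8.175e-05). Among the ORIG libraries, Tlr11 stood at 1.61 CPM in the BWF1 female, at 1.03 CPM in the BWF1 male and at 11.2 to 15.9 CPM in the BALB/c mice. No RL library is from BALB/c. Leaving out single libraries does not lift the condition given above, that Tlr11 was tested only through its BALB/c libraries.

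The conventional dendritic cell list holds 8 markers, of which 4 were tested, and its genes did not share one order between the groups. Xcr1, a chemokine receptor of cross-presenting dendritic cells, had 0, 1 and 2 counts in female BWF1 mice, 1, 3 and 30 in male BWF1 mice, and 28, 25 and 8 in BALB/c mice. Its mean was 1.91 CPM in female BWF1 mice, 3.76 CPM in male BWF1 mice and 14.8 CPM in BALB/c mice. Clec9a, a receptor for dead cells on the same subset, averaged 3.03 CPM in female BWF1 mice, 3.27 CPM in male BWF1 mice and 6.91 CPM in BALB/c mice, with overlapping libraries. Batf3, a transcription factor of that subset, averaged 5.04 CPM in female BWF1 mice, 2.89 CPM in male BWF1 mice and 3.48 CPM in BALB/c mice. Itgae, an integrin of that subset, averaged 7.54 CPM in female BWF1 mice, 3.65 CPM in male BWF1 mice and 5.96 CPM in BALB/c mice. These 4 genes were below the count filter. Of the 4 tested, Sirpa, a receptor of the other conventional subset and of macrophages, averaged 57.7 CPM in female BWF1 mice, 95.7 CPM in male BWF1 mice and 55.3 CPM in BALB/c mice. It was called higher in male BWF1 mice than in BALB/c mice by edgeR, DESeq2 and limma-voom, and lower in female BWF1 mice than in male BWF1 mice by edgeR and limma-voom. Flt3, a growth factor receptor, averaged 21.2 CPM in female BWF1 mice, 13.7 CPM in male BWF1 mice and 17.3 CPM in BALB/c mice. Zbtb46, a transcription factor of these cells, averaged 11.8 CPM in female BWF1 mice, 7.05 CPM in male BWF1 mice and 11.6 CPM in BALB/c mice. Itgax, which encodes CD11c, averaged 27.7 CPM in female BWF1 mice, 34.7 CPM in male BWF1 mice and 36.0 CPM in BALB/c mice, and edgeR and limma-voom called these last 3 genes in 0 comparisons. Summed over 8 of 8 conventional dendritic cell markers, levels were 126 to 154 CPM in female BWF1 mice, 149 to 180 CPM in male BWF1 mice and 148 to 155 CPM in BALB/c mice, and no marker was at 0 in a group. The part of these cells in the Tlr11 difference was not tested.

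Tlr12, the receptor that pairs with Tlr11 in the recognition of profilin, did not share its pattern. Its mean was 5.73 CPM in female BWF1 mice (9 counts), 7.40 CPM in male BWF1 mice (37 counts) and 4.43 CPM in BALB/c mice (16 counts), and it was below the count filter.

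**Figure D2:**
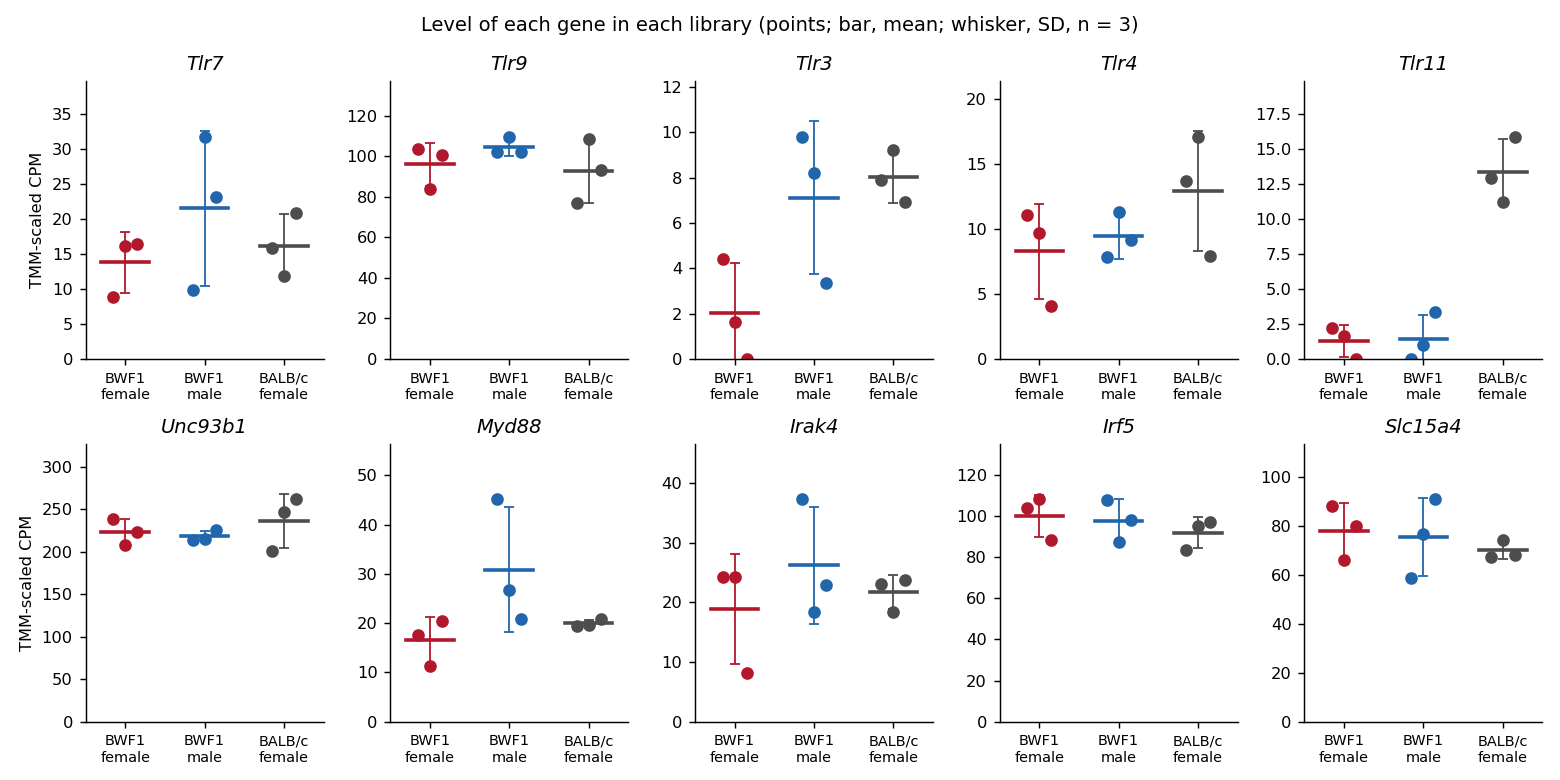
Level of each of the 10 genes in TMM-scaled CPM (vertical axis, from 0, a separate scale for each gene) by group, with 1 point per library, a bar for the mean and whiskers for the SD (n = 3). The Tlr11 panel shows BALB/c mice at 11.2 to 15.9 CPM and all BWF1 libraries at 3.33 CPM or less.

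Tlr7 (ENSMUSG00000044583, chrX:167304929-167330558, minus strand) had 8.82, 16.1 and 16.4 CPM in female BWF1 mice and 9.81, 31.8 and 23.1 CPM in male BWF1 mice. BALB/c mice had 15.8, 11.8 and 20.8 CPM. The 3 groups overlapped, and the lowest library of each BWF1 sex held only 4 and 5 Tlr7 counts, in female BWF1 mice and in male BWF1 mice. The log2 fold change was −0.69 for female BWF1 mice over male BWF1 mice, with a 95% interval from −1.46 to 0.09 and an edgeR adjusted p of 0.375. It was −0.90 without BWF1 male 1 (adjusted p = 0.193) and −0.37 without BWF1 male 2 (adjusted p = 0.735). The interval of the full fit therefore sets no firm limit on an excess in females. Over BALB/c mice the log2 fold change was −0.19 in female BWF1 mice (95% interval −0.99 to 0.60) and 0.50 in male BWF1 mice (−0.20 to 1.19). Within the RL libraries the female BWF1 mice had 8.82 and 16.4 CPM and the male BWF1 mice 9.81 and 23.1 CPM. The ORIG pair stood at 16.1 CPM in the female and 31.8 CPM in the male.

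Tlr9 (ENSMUSG00000045322, chr9:106222598-106226883, plus strand), the DNA sensor, had 104, 83.9 and 101 CPM in female BWF1 mice, 102, 110 and 102 CPM in male BWF1 mice, and 76.9, 108 and 93.2 CPM in BALB/c mice. All 3 groups overlapped. With 47 to 490 counts per library it was measured more closely than Tlr7, and its intervals were narrower. Its log2 fold change was −0.13 for female BWF1 mice over male BWF1 mice (95% interval −0.49 to 0.23), 0.05 for female BWF1 mice over BALB/c mice (−0.31 to 0.41) and 0.17 for male BWF1 mice over BALB/c mice (−0.18 to 0.52), and each changed sign without TMM scaling.

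Tlr3 (ENSMUSG00000031639, chr8:45395665-45411080, minus strand), which signals through Ticam1 in place of Myd88, had 2, 1 and 0 counts in female BWF1 mice, 5, 8 and 16 in male BWF1 mice and 11, 14 and 7 in BALB/c mice. In CPM these are 4.41, 1.61 and 0 in female BWF1 mice, 9.81, 8.20 and 3.33 in male BWF1 mice and 7.91, 9.20 and 6.94 in BALB/c mice. Every BWF1 female library lay below every BALB/c library, and the other pairs of groups overlapped. From pooled counts the BWF1 female level was 0.236 of the BALB/c level (exact 95% interval 0.0462 to 0.753, for 3 against 32 counts) and 0.417 of the BWF1 male level (0.0813 to 1.35, for 3 against 29 counts). The BWF1 male level was 0.565 of the BALB/c level (0.330 to 0.965), a pooled ratio weighted to the deepest library, BWF1 male 3, at 3.33 CPM. BWF1 male 1 and BWF1 male 2 stood at 9.81 and 8.20 CPM, within or above the BALB/c range. Means of the library values were 7.11 CPM in male BWF1 mice and 8.015 CPM in BALB/c mice. The exact intervals hold no spread between animals, and Tlr3 was not tested across libraries.

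Tlr4 (ENSMUSG00000039005, chr4:66827584-66930284, plus strand) had 11.0, 9.68 and 4.11 CPM in female BWF1 mice, 7.85, 11.3 and 9.16 CPM in male BWF1 mice, and 13.7, 17.1 and 7.93 CPM in BALB/c mice. The groups overlapped at 2 to 44 counts per library. Log2 fold changes were −0.20 for female BWF1 mice over male BWF1 mice (95% interval −1.14 to 0.75), −0.65 for female BWF1 mice over BALB/c mice (−1.56 to 0.25) and −0.46 for male BWF1 mice over BALB/c mice (−1.24 to 0.32). Intervals this wide leave moderate differences undetectable at this depth.

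Among other Toll-like receptors, Tlr8, an endosomal RNA receptor next to Tlr7 on the X chromosome, averaged 1.27 CPM in female BWF1 mice, 4.65 CPM in male BWF1 mice and 0.657 CPM in BALB/c mice, on 2, 30 and 3 counts with 24 of the 30 in BWF1 male 3. Tlr13, which recognises bacterial ribosomal RNA, averaged 2.69 CPM in female BWF1 mice, 8.92 CPM in male BWF1 mice and 8.06 CPM in BALB/c mice, on 4, 64 and 32 counts with 51 of the 64 in BWF1 male 3. Both were below the filter, as were Tlr5 and Tlr12. Of the 7 other receptors 3 were tested (Tlr1, Tlr2 and Tlr6, which recognise lipoproteins at the surface), and edgeR called 0 in each comparison, with 0, 1 and 1 at an unadjusted p under 0.05 for female BWF1 mice over male BWF1 mice, female BWF1 mice over BALB/c mice and male BWF1 mice over BALB/c mice. DESeq2 also called 0, although it gave no adjusted p for these 3 genes between female BWF1 mice and male BWF1 mice, and limma-voom called Tlr1 for male BWF1 mice over BALB/c mice. Of all tested genes edgeR called 2.19%, 3.82% and 3.52% in the 3 comparisons, in the order above.

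Unc93b1 (ENSMUSG00000036908, chr19:3935186-3949340, plus strand), the chaperone of the endosomal receptors, was the most precisely measured of the genes. It had 238, 208 and 224 CPM in female BWF1 mice, 214, 215 and 225 CPM in male BWF1 mice, and 201, 246 and 262 CPM in BALB/c mice. The groups overlapped and their means differed by less than the SD of BALB/c mice, at 223 ± 15.04 CPM in female BWF1 mice, 218 ± 6.37 CPM in male BWF1 mice and 237 ± 31.4 CPM in BALB/c mice (SD, n = 3 each). Log2 fold changes were 0.03 for female BWF1 mice over male BWF1 mice (95% interval −0.27 to 0.34), −0.08 for female BWF1 mice over BALB/c mice (−0.39 to 0.22) and −0.11 for male BWF1 mice over BALB/c mice (−0.42 to 0.19).

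Slc15a4 (ENSMUSG00000029416, chr5:127595664-127632897, minus strand), which carries histidine and peptides out of the lysosome, had 88.2, 66.1 and 80.1 CPM in female BWF1 mice, 58.8, 76.9 and 91.0 CPM in male BWF1 mice, and 67.6, 74.3 and 68.4 CPM in BALB/c mice. The BALB/c libraries lay within the range of the BWF1 libraries. The log2 fold change was 0.03 for female BWF1 mice over male BWF1 mice (95% interval −0.37 to 0.42), 0.15 for female BWF1 mice over BALB/c mice (−0.24 to 0.55) and 0.13 for male BWF1 mice over BALB/c mice (−0.26 to 0.51), and those over BALB/c mice changed sign without TMM scaling.

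Myd88 (ENSMUSG00000032508, chr9:119335934-119341411, minus strand), the adaptor shared by the receptors described here other than Tlr3, had 17.6, 11.3 and 20.5 CPM in female BWF1 mice and 45.1, 26.7 and 20.8 CPM in male BWF1 mice. BALB/c mice had 19.4, 19.7 and 20.8 CPM. All BWF1 female libraries lay below all BWF1 male libraries, although the nearest 2 were at 20.5 CPM in BWF1 female 3 and 20.8 CPM in BWF1 male 3. Means were 16.5 ± 4.73 CPM in female BWF1 mice, 30.9 ± 12.7 CPM in male BWF1 mice and 19.98 ± 0.741 CPM in BALB/c mice (SD, n = 3 each).

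The log2 fold change of Myd88 for female BWF1 mice over male BWF1 mice was −0.84 ± 0.33 (SE), with a 95% interval from −1.52 to −0.16, and edgeR gave an unadjusted p of 0.017 and an adjusted p of 0.184. It was −0.50 without BWF1 male 1 (adjusted p = 0.501), and the adjusted p stood above the threshold under every alternative in which one was given. DESeq2 gave none for this gene. Within the RL libraries the female BWF1 mice had 17.6 and 20.5 CPM and the male BWF1 mice 45.1 and 20.8 CPM, and within the ORIG libraries the female had 11.3 CPM and the male 26.7 CPM. The 8 macrophage gate markers also did not overlap in their sum between these groups, at 190 to 216 CPM in female BWF1 mice and 365 to 579 CPM in male BWF1 mice, and none was at 0 in a group. The sum over 8 T cell markers did not overlap either, at 273 to 364 CPM in female BWF1 mice and 514 to 586 CPM in male BWF1 mice. Of 6 tested macrophage gate markers edgeR called 3 lower in female BWF1 mice (Csf1r, Lyz2 and Vcam1), beside 1.23% of all tested genes. Adgre1 overlapped, at 12.3 to 17.6 CPM in female BWF1 mice and 11.3 to 20.8 CPM in male BWF1 mice. The part of both cell types in the Myd88 difference was not tested. Over BALB/c mice the log2 fold change in male BWF1 mice was 0.55 (95% interval −0.06 to 1.15, adjusted p = 0.371, with the sign turned without TMM scaling), and the lowest male and highest BALB/c library were both at 20.8 CPM when rounded. It was −0.29 in female BWF1 mice over BALB/c mice (−0.98 to 0.39).

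Irak4 (ENSMUSG00000059883, chr15:94543643-94581815, plus strand), the kinase recruited by Myd88, had 24.3, 24.2 and 8.21 CPM in female BWF1 mice, 37.3, 18.5 and 22.9 CPM in male BWF1 mice, and 23.0, 18.4 and 23.8 CPM in BALB/c mice. One library in each BWF1 sex stood apart, BWF1 female 3 at the low end with 4 counts and BWF1 male 1 at the high end with 19. Log2 fold changes were −0.40 for female BWF1 mice over male BWF1 mice (95% interval −1.11 to 0.31), −0.19 for female BWF1 mice over BALB/c mice (−0.89 to 0.52) and 0.22 for male BWF1 mice over BALB/c mice (−0.43 to 0.86, with the sign reversed without TMM scaling).

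Irf5 (ENSMUSG00000029771, chr6:29526625-29541871, plus strand), a transcription factor activated downstream of Myd88, had 104, 108 and 88.3 CPM in female BWF1 mice, 108, 87.2 and 98.1 CPM in male BWF1 mice, and 83.4, 95.3 and 97.1 CPM in BALB/c mice. The groups overlapped and their ranges nearly coincided. Log2 fold changes were 0.04 for female BWF1 mice over male BWF1 mice (95% interval −0.31 to 0.39), 0.12 for female BWF1 mice over BALB/c mice (−0.23 to 0.47) and 0.09 for male BWF1 mice over BALB/c mice (−0.26 to 0.43), and those over BALB/c mice changed sign without TMM scaling. Exons of Irf5, Myd88 and Irak4 share 411, 290 and 395 bases with counted genes on the other strand (Tnpo3, Acaa1a and Twf1). The strand setting of the counting is not given in the sources used here, so reads from such stretches cannot be told apart.

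**Figure D3:**
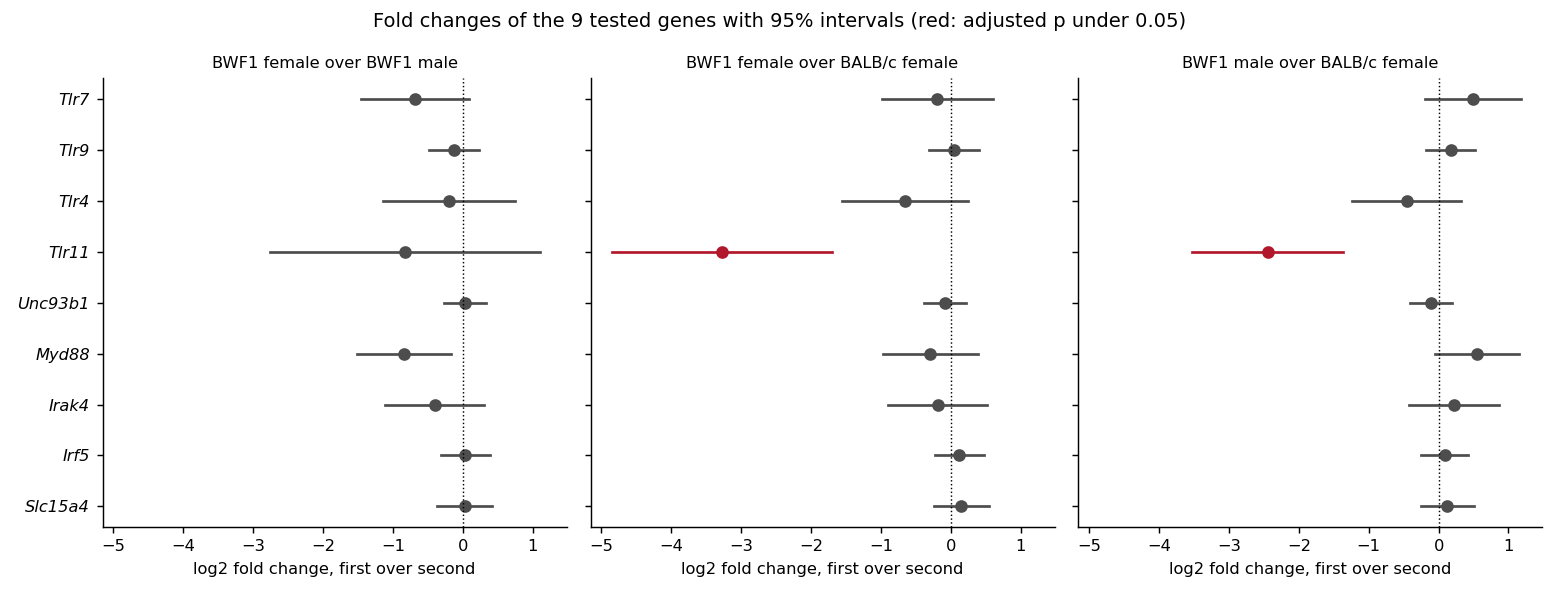
Log2 fold change of the 9 tested genes in 3 comparisons (horizontal axis, first group over second), with points for the estimate, lines for the 95% interval and red for an adjusted p under 0.05. Tlr11 is red in both comparisons with BALB/c mice, at −3.27 for female BWF1 mice and −2.45 for male BWF1 mice, and no gene is red for female BWF1 mice over male BWF1 mice.

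Counted over the group, 9 of the 10 genes were tested. Between female and male BWF1 mice edgeR called 0 of 9 (1 at an unadjusted p under 0.05, Myd88), beside 2.19% of all 7719 genes tested, and limma-voom and DESeq2 also called 0, the last with no adjusted p for 5 of the 9. Libraries did not overlap between these groups for 1 of 9 tested genes, beside 18.7% of all tested genes. In female BWF1 mice 1 of 9 (Tlr11, tested only through its BALB/c libraries) was called over BALB/c mice, beside 3.82%, and 1 of 9 did not overlap, beside 21.2%. In male BWF1 mice 1 of 9 was called over BALB/c mice, beside 3.52%, and 2 of 9 did not overlap, beside 23.5%. With so few genes these counts are near what the background gives. The median log2 fold change over the 9 genes was −0.20, −0.19 and 0.13 in the 3 comparisons, beside 0.001, −0.002 and −0.003 over all tested genes. Adjusted p-values of the genes not called ran from 0.184 to 0.97 for female BWF1 mice over male BWF1 mice, from 0.482 to 0.927 for female BWF1 mice over BALB/c mice and from 0.371 to 0.864 for male BWF1 mice over BALB/c mice.

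The balance between receptors, and between a receptor and its chaperone, was also taken within each library, where scaling between libraries cancels. Tlr7 counts as a share of Tlr7 and Tlr9 counts were 7.84%, 16.1% and 14.0% in female BWF1 mice, 8.77%, 22.5% and 18.5% in male BWF1 mice, and 17.1%, 9.84% and 18.3% in BALB/c mice. The groups overlapped, with means of 12.7% ± 4.31 in female BWF1 mice, 16.6% ± 7.04 in male BWF1 mice and 15.1% ± 4.56 in BALB/c mice (SD, n = 3 each). Exact two-sided permutation tests gave p = 0.4 for female BWF1 mice against male BWF1 mice, p = 0.5 for female BWF1 mice against BALB/c mice and p = 0.7 for male BWF1 mice against BALB/c mice. The exact binomial 95% interval for 1 library was as wide as 2.18% to 18.9%, in BWF1 female 1, so small shifts in this share were not detectable at this depth.

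Tlr9 counts per Unc93b1 count were 0.435, 0.403 and 0.450 in female BWF1 mice, 0.477, 0.510 and 0.452 in male BWF1 mice, and 0.382, 0.440 and 0.356 in BALB/c mice. Every BWF1 male library lay above every library of the other groups, by a margin as small as 0.452 in BWF1 male 3 against 0.450 in BWF1 female 3. Exact two-sided permutation tests gave p = 0.1 for female BWF1 mice against male BWF1 mice, p = 0.3 for female BWF1 mice against BALB/c mice and p = 0.1 for male BWF1 mice against BALB/c mice. With 3 against 3, p = 0.1 is the smallest these exact tests can give, and adjusted over the 6 tests on both ratios it became 0.3. The exact 95% interval of the ratio in BWF1 male 1, 0.336 to 0.670, covered the values of all 9 libraries.

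**Figure D4:**
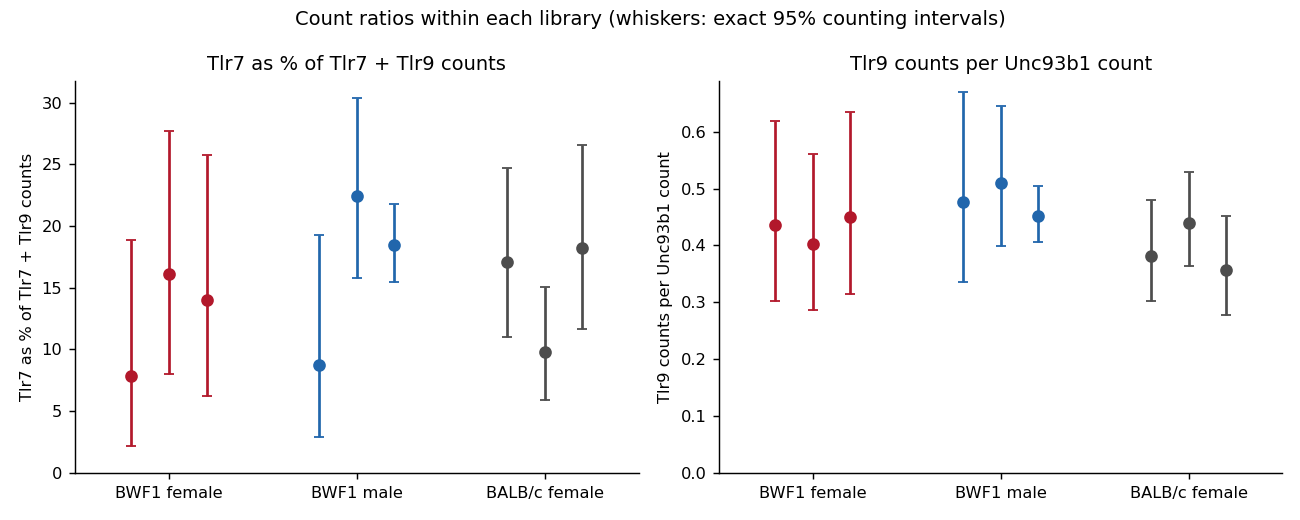
Tlr7 counts as a percentage of Tlr7 and Tlr9 counts (left) and Tlr9 counts per Unc93b1 count (right) in each of 9 libraries, by group, with points for the library and whiskers for exact 95% counting intervals. On the right the 3 BWF1 male libraries, at 0.452 to 0.510, are the highest, and all whiskers overlap.

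The genes whose levels ran most like those of Tlr7 and Tlr9 over the 9 libraries were found by Pearson r on log2 CPM among 7719 genes. For Tlr7 they were Pdrg1 (r = 0.889), Vapb (0.882), Ccnq (0.878), Bicral (0.875) and Spred2 (0.874), with Spearman rho from 0.683 to 0.933. For Tlr9 they were Stim2 (r = 0.902), Zfp319 (0.900), Rab3ip (0.893), Urb1 (0.876) and Rsl24d1 (0.874), with rho from 0.767 to 0.850. None of them is among the 10 genes or the wider pathway lists. These values describe 9 points that share library depth and scaling, and they are the highest among all genes compared, so no p is given.

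The wider pathway was followed with 9 lists of 102 named genes outside the 10, of which 101 were counted and 81 tested. Over male BWF1 mice, edgeR called 0 of the 81 higher and 2 lower in female BWF1 mice, with 0.959% of all tested genes called higher and 1.23% lower. For female BWF1 mice over BALB/c mice 1 was called higher and 5 lower, beside 1.79% and 2.03%, and for male BWF1 mice over BALB/c mice 2 were called higher and 4 lower, beside 1.67% and 1.85%. The median log2 fold change over the 81 genes was −0.07, −0.10 and −0.10. Both comparisons with BALB/c mice share their BALB/c libraries, so their calls are not separate evidence.

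Sums of cell type markers moved with these comparisons, and their part in the differences below was not tested. Between female BWF1 mice and male BWF1 mice, the sums of macrophage gate markers (given above) and of T cell markers did not overlap. In female BWF1 mice edgeR called 6 of 8 T cell markers lower (Cd3e, Cd3g, Cd247, Cd4, Cd8a and Cd8b1), beside 1.23% of all tested genes. T cell sums were 273 to 364 CPM in female BWF1 mice, 514 to 586 CPM in male BWF1 mice and 342 to 495 CPM in BALB/c mice. Against BALB/c mice, B cell marker sums were lower and plasmacytoid dendritic cell marker sums higher in both BWF1 groups without overlap. Single markers did not all follow these sums. Of 9 B cell markers edgeR called 4 lower in female BWF1 mice, beside 2.03% of all tested genes. In male BWF1 mice it called 1, Fcer2a, lower, beside 1.85%, and mean Blk was not lower in either group. Of 5 tested plasmacytoid dendritic cell markers it called 1, Ly6d, higher in both groups, beside 1.79% and 1.67%. Siglech averaged 13.1 CPM in female BWF1 mice, 18.6 CPM in male BWF1 mice and 18.7 CPM in BALB/c mice. Erythroid markers, summed over 7, were at 550 to 1618 CPM in female BWF1 mice, 99.3 to 753 CPM in male BWF1 mice and 1027 to 3017 CPM in BALB/c mice. Of these, edgeR called 6 of 6 tested lower in male BWF1 mice than in BALB/c mice, beside 1.85% of all tested genes. DESeq2 called 2 of these T cell markers, with no adjusted p for 5 of the 8, and 1 of the 6 erythroid markers.

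Between female BWF1 mice and male BWF1 mice the called genes were Ctsb and Mavs. Ctsb, which encodes the lysosomal protease cathepsin B, averaged 128 ± 6.37 CPM in female BWF1 mice and 230 ± 11.6 CPM in male BWF1 mice (SD, n = 3 each), giving −0.84 ± 0.15 (SE) on the log2 scale and an adjusted p of 0.00249 in edgeR. Mavs, the mitochondrial adaptor of cytosolic RNA sensors, averaged 16.4 ± 5.71 CPM in female BWF1 mice and 44.6 ± 9.40 CPM in male BWF1 mice, giving −1.46 ± 0.29 (SE) and an adjusted p of 0.0055. Libraries did not overlap for either gene. The Ctsb call held without each library in turn, and the Mavs call was lost without BWF1 male 3 (adjusted p = 0.0729). Both were lost without TMM scaling (adjusted p = 0.78 for Ctsb and 0.219 for Mavs). The summed macrophage gate and T cell markers also stood lower in female BWF1 mice than in male BWF1 mice, as given above. Exons of Ctsb share 774 bases with Fdft1 on the other strand.

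Of 11 tested negative regulators of the pathway, edgeR called 3 lower and 0 higher in female BWF1 mice than in BALB/c mice, beside 2.03% and 1.79% of all tested genes, with a median log2 fold change of −0.28. DESeq2 called 1 of them, Tnfaip3, and limma-voom 2, Tnfaip3 and Nfkbia. The Atf3 call held under 10 of 18 alternatives and the Nfkbia call under 8 of 18. Atf3 passed the filter on low counts only through its BALB/c libraries. Tnfaip3, which encodes the ubiquitin-editing enzyme A20, averaged 56.5 ± 11.1 CPM in female BWF1 mice, 55.1 ± 3.35 CPM in male BWF1 mice and 113 ± 2.69 CPM in BALB/c mice (SD, n = 3 each). Its log2 fold change was −0.997 ± 0.18 (SE) in female BWF1 mice (edgeR adjusted p = 0.00137) and −1.03 ± 0.18 (SE) in male BWF1 mice (adjusted p = 0.000625) over BALB/c mice, and both calls held under 18 of 18 alternatives. Nfkbia, the inhibitor that holds NF-kB in the cytoplasm, averaged 87.1 ± 11.3 CPM in female BWF1 mice, 91.7 ± 14.4 CPM in male BWF1 mice and 134 ± 13.6 CPM in BALB/c mice. It was called for female BWF1 mice (log2 fold change −0.62, adjusted p = 0.0447) and not for male BWF1 mice (−0.55, adjusted p = 0.0786).

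Atf3, a transcription factor induced by Toll-like receptors that limits their response, had 5 counts in female BWF1 mice, 66 in male BWF1 mice and 57 in BALB/c mice. Its level averaged 2.89 ± 3.28 CPM in female BWF1 mice, 11.2 ± 4.28 CPM in male BWF1 mice and 15.1 ± 4.38 CPM in BALB/c mice (SD, n = 3 each). It was called for female BWF1 mice over BALB/c mice, at −2.21 ± 0.59 (SE) on the log2 scale and an adjusted p of 0.03 in edgeR, and not over male BWF1 mice (−1.73, adjusted p = 0.142). Atf3 passed the filter on low counts only through its BALB/c libraries, so a high level there was a condition of its being tested. The Atf3 call was lost without BWF1 female 1 (adjusted p = 0.109), BWF1 female 3 (0.0926), BALB/c female 1 (0.0717) or BALB/c female 3 (0.117). It was also lost in DESeq2 (adjusted p = 0.127), in limma-voom (0.0847) and with the file tag as a term (0.108). Without BWF1 female 2 the Atf3 log2 fold change was −3.70. The Nfkbia call was lost without any single library other than BWF1 male 1 or BWF1 male 2, with adjusted p up to 0.195 (without BALB/c female 3), and it was lost without TMM scaling (0.273) and with DESeq2 (0.123). Limma-voom called Nfkbia lower in male BWF1 mice as well, and it called another negative regulator, Tnip1, higher in male BWF1 mice than in BALB/c mice.

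Among enzymes that digest DNA, the ligand of Tlr9, Dnase1l3 was called lower in both BWF1 groups than in BALB/c mice and Dnase2a in male BWF1 mice. The exonucleases Pld3 and Pld4 were not called, at −0.39 and 0.01 in female BWF1 mice and 0.24 and 0.38 in male BWF1 mice over BALB/c mice on the log2 scale. Dnase1l3, a secreted nuclease whose loss causes lupus in people and mice, averaged 30.4 ± 2.99 CPM in female BWF1 mice, 37.1 ± 3.18 CPM in male BWF1 mice and 64.0 ± 11.7 CPM in BALB/c mice (SD, n = 3 each). Its log2 fold change over BALB/c mice was −1.07 ± 0.22 (SE) in female BWF1 mice (edgeR adjusted p = 0.00381), called under 18 of 18 alternatives. In male BWF1 mice it was −0.78 ± 0.20 (SE, adjusted p = 0.0288), a call lost without BWF1 male 2 (0.113), BWF1 male 3 (0.0853), BALB/c female 1 (0.167) or BALB/c female 2 (0.122), with DESeq2 (0.0745) and with the file tag as a term (0.183). Dnase2a, the lysosomal nuclease, averaged 17.3 ± 2.76 CPM in female BWF1 mice, 13.1 ± 3.70 CPM in male BWF1 mice and 31.5 ± 0.742 CPM in BALB/c mice. It was called for male BWF1 mice (log2 fold change −1.18, adjusted p = 0.0116, lost without BWF1 male 2 at 0.0669 or BALB/c female 2 at 0.0646 and with DESeq2 at 0.051) and not for female BWF1 mice (−0.86, adjusted p = 0.107). Erythroid markers also did not overlap between male BWF1 mice and BALB/c mice, as given above. Exons of Dnase2a share 1616 bases with Mast1 on the other strand. Of the 8 tested proteases and nucleases, edgeR called 1 lower and 0 higher in female BWF1 mice over BALB/c mice, beside 2.03% and 1.79% of all tested genes, and 2 lower and 0 higher in male BWF1 mice over BALB/c mice, beside 1.85% and 1.67%. For male BWF1 mice DESeq2 called 0, and limma-voom called these 2 lower and 2 higher, Ctsb and Ctss.

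Hsp90b1, the endoplasmic reticulum chaperone that folds Toll-like receptors, was the called gene among 12 tested chaperones and trafficking factors. Of all tested genes, edgeR called 1.79% higher in female BWF1 mice and 1.67% higher in male BWF1 mice than in BALB/c mice. Hsp90b1 averaged 394 ± 143 CPM in female BWF1 mice, 432 ± 113 CPM in male BWF1 mice and 231 ± 27.6 CPM in BALB/c mice (SD, n = 3 each). The log2 fold change over BALB/c mice was 0.77 ± 0.21 (SE, edgeR adjusted p = 0.0326) in female BWF1 mice, whose libraries overlapped with BALB/c, and 0.90 ± 0.21 (SE, adjusted p = 0.0119) in male BWF1 mice, whose libraries did not. The call in female BWF1 mice was lost without BWF1 female 1 (0.207), BWF1 female 2 (0.137), BALB/c female 1 (0.0539), BALB/c female 2 (0.152) or BALB/c female 3 (0.107), and that in male BWF1 mice without BWF1 male 1 (0.0577) or BALB/c female 2 (0.0896). Without TMM scaling the adjusted p was 0.606 in female BWF1 mice and 0.521 in male BWF1 mice, with DESeq2 it was 0.273 and 0.127, and with the file tag as a term it was 0.115 and 0.0639, so both calls were lost under each.

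Of 10 tested transcription factors, Irf7 was called lower in female BWF1 mice and Relb lower in male BWF1 mice, each over BALB/c mice, and 0 were called between female BWF1 mice and male BWF1 mice (1 at an unadjusted p under 0.05). Beside these, 2.03% and 1.85% of all tested genes were called lower over BALB/c mice, and 2.19% were called between the sexes. Irf7, the factor that drives interferon alpha genes after Tlr7 and Tlr9, averaged 12.7 ± 4.80 CPM in female BWF1 mice, 14.6 ± 5.43 CPM in male BWF1 mice and 28.8 ± 4.99 CPM in BALB/c mice (SD, n = 3 each). Its log2 fold change was −1.21 ± 0.34 (SE) in female BWF1 mice (edgeR adjusted p = 0.0463) and −0.95 in male BWF1 mice (adjusted p = 0.0861), and the call was lost without any single library other than BWF1 female 1, BWF1 male 1 or BWF1 male 2, with adjusted p up to 0.195 (without BWF1 female 2). It was also lost with DESeq2 (0.194), limma-voom (0.1), the file tag as a term (0.248) and no TMM scaling (0.0632). Limma-voom instead called Irf7 lower in male BWF1 mice, and Irf7 was not called between the sexes. Relb, a subunit of NF-kB, averaged 39.3 ± 2.01 CPM in female BWF1 mice, 30.8 ± 2.90 CPM in male BWF1 mice and 51.3 ± 6.11 CPM in BALB/c mice. Its log2 fold change in male BWF1 mice was −0.72 ± 0.21 (SE, adjusted p = 0.0488), a call that held without 1 of the 9 libraries, BWF1 female 3, and was lost without each of the others, with adjusted p up to 0.189 (without BALB/c female 3). It was also lost with DESeq2 (0.15), with the file tag (0.222), without TMM scaling (0.0539) and without the count filter (0.0656).

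Mavs was the called gene among 11 tested cytosolic sensors for male BWF1 mice over BALB/c mice, with 44.6 ± 9.40 CPM in male BWF1 mice and 21.5 ± 3.42 CPM in BALB/c mice (SD, n = 3 each) and a difference of 1.06 ± 0.26 (SE) on the log2 scale, at an adjusted p of 0.0171 in edgeR. This call was lost without BWF1 male 3 (0.145), BALB/c female 2 (0.119) or BALB/c female 3 (0.0638), with the file tag as a term (0.433) and without TMM scaling (0.344). For female BWF1 mice over BALB/c mice edgeR called 0 of these 11, with 0 at an unadjusted p under 0.05 and 0 by DESeq2 and limma-voom. Among all tested genes, 1.67% were called higher in male BWF1 mice than in BALB/c mice, and 3.82% were called for female BWF1 mice.

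Kinases and ubiquitin ligases, adaptors, and coreceptors with ligand carriers had 17, 3 and 6 genes tested, and edgeR, DESeq2 and limma-voom called 0 of them in each of the 3 comparisons. Of all tested genes edgeR called 2.19% for female BWF1 mice over male BWF1 mice. Over BALB/c mice it called 3.82% for female BWF1 mice and 3.52% for male BWF1 mice. At an unadjusted p under 0.05 in edgeR there were 1, 0 and 4 kinases and ligases, 1, 0 and 0 adaptors, and 2, 3 and 1 coreceptors and carriers, for female BWF1 mice over male BWF1 mice, female BWF1 mice over BALB/c mice and male BWF1 mice over BALB/c mice. DESeq2 gave no adjusted p between female BWF1 mice and male BWF1 mice for 12, 2 and 2 of these genes. Median log2 fold changes in those comparisons were 0.26, 0.02 and −0.25 for kinases and ligases, which include the partners of Irak4.

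**Figure D5:**
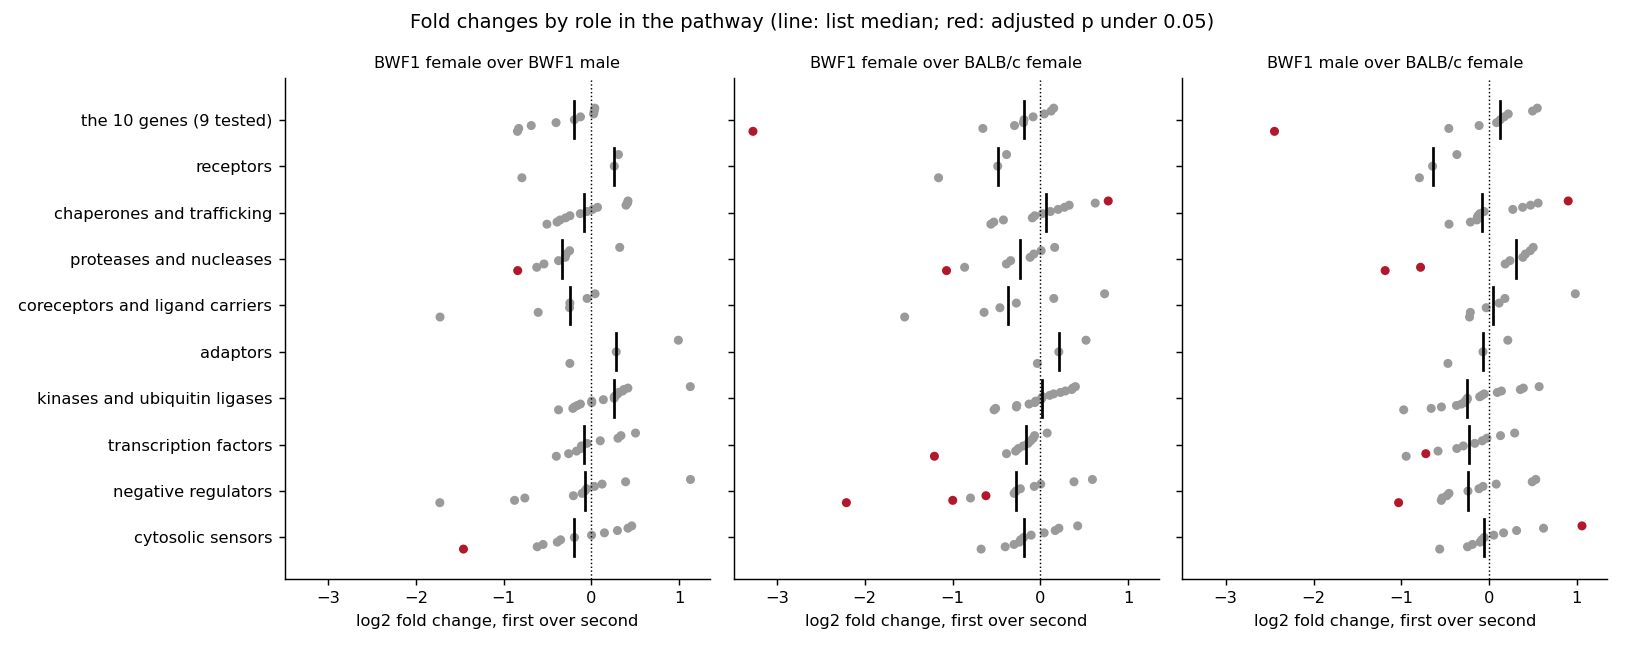
Log2 fold change (horizontal axis, first group over second) of each tested gene in the 10 genes and in 9 wider pathway lists, in 3 comparisons, with a line at the median of each list and red for an adjusted p under 0.05. Tlr11 is the red point farthest from 0, and the red points among negative regulators and nucleases lie left of 0 in the comparisons with BALB/c mice.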

How the data were processed

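RNA-seq was made from spleens of 16-week-old mice, in 9 libraries in 3 groups of 3. The authors deposited whole-number read counts per gene, 1 file per library and 1 table of all libraries, with 0 values differing between them. The submitters' processing notes name FastQC 0.10.1, STAR 2.6 and the build mm10, with no roles or order. The annotation and the strand setting of the counting are not given in the sources used here, and the kits are not described as marking strand, per the labels' protocols. Summary lines (no feature, ambiguous, not unique) named no gene and were left out of library sizes. They held most alignments, since only 1.29% to 2.82% lay in genes. Names, coordinates and exon lengths came from GENCODE M21 on mm10, which matched 21939 of 21965 identifiers.

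Tests used R 4.3.3 and edgeR 4.0.16. Genes passed filterByExpr with a minimum count of 10, which kept 7719 and set 14246 aside, so Tlr3 and many list genes were not tested. Libraries were scaled by TMM, with factors from 0.530 to 1.40. A quasi-likelihood model (glmQLFit, prior degrees of freedom 19.4) was fitted to all 9 libraries without covariates, and the Benjamini-Hochberg adjustment ran over every gene tested, with calls at an adjusted p under 0.05. The SE is the size of the log2 fold change divided by the square root of F, and 95% intervals use the t distribution. Genes with few counts are also given as a ratio of pooled counts with an exact interval, which covers counting error only because reads carried no molecular identifiers. The 2 count ratios were compared by exact two-sided permutation tests. The fit was tested on simulated data with known changes. Replicates of a group differed beyond counting error, with a chi-square per degree of freedom from 1.23 to 2.6.

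Alternatives were other scalings, no count filter, Lars2 left out, DESeq2 1.42.0, limma-voom (limma 3.58.1), a block for the replicate number, the file tag as a term, an older quasi-likelihood method (chosen after seeing the data) and leaving out each library in turn. The genes and lists were chosen with earlier results of these data known, and the 2 count ratios and the dendritic cell markers shown by library were chosen after their counts were seen. All 10 genes are named, as are the genes called in each pathway list (at most 4 per comparison, by lowest p) and the 5 genes most like Tlr7 and Tlr9.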

Additional observations from a re-analysis of the deposited data

How the results depend on the processing

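Of the 10 genes, the number called was 0 for female BWF1 mice over male BWF1 mice under every alternative run. For female BWF1 mice over BALB/c mice it was 1 (Tlr11, tested only through its BALB/c libraries). DESeq2 gave 0 there, and leaving out single libraries gave 0 to 1. For male BWF1 mice over BALB/c mice the number called was 1 (Tlr11). The file tag as a term gave 0 there, and leaving out single libraries gave 1 to 1. Several of the genes had fewer than 20 counts in most libraries, which limits their precision, while Unc93b1, Tlr9, Irf5 and Slc15a4 had 30 to 1083 counts and were not called either.

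Counts over all genes moved more. Between female and male BWF1 mice, 169 genes were called, against 59 without TMM scaling, 304 without the count filter, 105 with DESeq2 and 58 to 198 with single libraries left out, the low end without BWF1 male 3, and 101 without BWF1 male 2 and 108 without BWF1 female 3. In female BWF1 mice over BALB/c mice 295 were called, against 130 without TMM scaling, 169 with DESeq2, 160 with the file tag and 184 to 370 with single libraries left out, with 184, 189 and 194 without BALB/c female 1, 2 and 3. In male BWF1 mice over BALB/c mice 272 were called, against 433 with Lars2 left out, 510 without the count filter, 650 with limma-voom, 153 with the file tag, 484 with the older quasi-likelihood method and 119 to 393 with single libraries left out, with 119 without BALB/c female 2 and 150 without BWF1 male 3. Without TMM scaling the called genes were 45 higher and 14 lower for female BWF1 mice over male BWF1 mice (74 and 95 with it), 23 higher and 107 lower for female BWF1 mice over BALB/c mice (138 and 157) and 26 higher and 248 lower for male BWF1 mice over BALB/c mice (129 and 143). Limma-voom gave 147 higher of 246 and 142 higher of 247 for female BWF1 mice over male BWF1 mice and over BALB/c mice, and the file tag 50 higher of 153 for male BWF1 mice over BALB/c mice. Of the 81 pathway list genes, the number called was 2, against 0 without TMM scaling, 1 with DESeq2 and 1 to 3 with single libraries left out for female BWF1 mice over male BWF1 mice. The number for female BWF1 mice over BALB/c mice was 6, against 3 without TMM scaling, 2 with DESeq2, 3 with the file tag and 2 to 6 with single libraries left out. The number for male BWF1 mice over BALB/c mice was 6, against 10 with Lars2 left out, 2 with DESeq2, 12 with limma-voom, 3 with the file tag, 10 with the older method and 1 to 9 with single libraries left out. The cause was not tested.

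Small fold changes of genes that were never called changed sign. Without TMM scaling the log2 fold change was 0.064 for Tlr9 in female BWF1 mice over male BWF1 mice. Over BALB/c mice it was −0.255 for Tlr9, −0.174 for Irf5 and −0.135 for Slc15a4 in female BWF1 mice, and −0.319 for Tlr9, −0.004 for Myd88, −0.279 for Irak4, −0.412 for Irf5 and −0.287 for Slc15a4 in male BWF1 mice. With the file tag as a term it was 0.185 for Tlr7 and −0.008 for Tlr9 in female BWF1 mice over BALB/c mice. For female BWF1 mice over male BWF1 mice, Unc93b1 stood at −0.002 without the count filter, and Slc15a4 at −0.015 with Lars2 left out, −0.02 without the filter, −0.013 with DESeq2, −0.051 with limma-voom and −0.045 with the older method. With single libraries left out, log2 fold changes for female BWF1 mice over male BWF1 mice ran from −0.424 to 0.11 for Tlr4, −1.293 to 0.812 for Tlr11 (the high end without BWF1 male 3), −0.026 to 0.077 for Unc93b1, −0.033 to 0.119 for Irf5 and −0.114 to 0.182 for Slc15a4. For female BWF1 mice over BALB/c mice they ran from −0.385 to 0.029 for Tlr7, −0.075 to 0.169 for Tlr9, −0.188 to 0.001 for Unc93b1 and −0.422 to 0.167 for Irak4. For male BWF1 mice over BALB/c mice they ran from −0.031 to 0.405 for Irak4 and −0.028 to 0.262 for Slc15a4. The other log2 fold changes of the 9 tested genes kept their sign under the alternatives run.

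The groups share replicate numbers in the labels. Deviations from the group means correlated at −0.0912 to 0.0589 between same-numbered libraries, and 1 of 9 libraries was most like its own number, so the numbers were not taken to pair the samples. With a replicate block, 118, 255 and 240 genes were called, and 0, 1 and 1 of the genes described here, for female BWF1 mice over male BWF1 mice, female BWF1 mice over BALB/c mice and male BWF1 mice over BALB/c mice. Under the block Tlr11, tested only through its BALB/c libraries, had adjusted p-values of 0.0187 in female BWF1 mice and 0.0073 in male BWF1 mice over BALB/c mice. The calls of Dnase1l3 and Relb in male BWF1 mice (adjusted p = 0.0547 and 0.0627) and of Irf7 and Atf3 in female BWF1 mice (0.0764 and 0.0567) were lost under it.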
